A study of Danio rerio with 7 samples.

Results

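The proteasome is the large protease that breaks down proteins tagged with ubiquitin. Its barrel, the 20S core, is built of alpha rings that gate the entrance and beta rings that hold the cutting sites, and the 19S particle on its ends binds ubiquitin chains, unfolds the substrate with a ring of ATPases and feeds it into the barrel. Activators of the psme family can take the place of the 19S particle, and in cells exposed to interferon the cutting beta subunits are replaced by immune versions that favour peptides for presentation on MHC class I.

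Proteasome genes were taken as the rows of the count table whose name starts with psm, a letter from a to f and a digit. This rule matched 52 of 30421 rows, and 46 of them had 10 or more counts over the 6 libraries. One of these, psmc3ip with 17 counts, encodes a factor of meiotic recombination and no proteasome subunit, so it is left out of all counts here. The remaining 45 genes comprised 9 rows of 20S alpha subunits, 7 of constitutive beta subunits, 1 of the beta rows grouped here as immune (psmb11b), 7 of 19S ATPases, 15 of other 19S genes, 5 of activators and 1 inhibitor, psmf1. The 6 rows under the threshold were psmb8a, psmb9a, psmb10, psmb11a, psmb12 and psmd2. Nearest to it were psmb9a with 4 counts on the lower side and, among proteasome genes, psme1 with 50 on the upper side. The genes were spread over 20 chromosomes of GRCz12tu, with at most 5 on 1 chromosome.

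Zebrafish heads were pooled at 5 dpf (days after fertilization) for 6 bulk RNA-seq libraries. Of these, 3 were wild type (WT 66, 67 and 68) and 3 hm41 mutant (hm41 69, 70 and 71). The mutant line is called leaky by the submitters, in a study of the blood-brain barrier whose design text links the trait to spock1 on chromosome 14, and the labels give neither the zygosity nor the number of larvae pooled. Nothing says that the pools came from separate clutches, so p-values measure the spread between these samples only. The counts were estimated per gene, and levels are given in CPM, counts relative to the scaled library total.

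Library totals lay between 33775984 and 114604258 counts, but 1664845 (WT 67) to 4959749 (WT 66) of these fell outside the 8 most abundant rows. Those 8 rows held 93.6% to 95.7% of the counts and are part of the total behind CPM. The CPM of all other genes are therefore small and serve to compare libraries. The tested proteasome genes had a median of 119 counts per library, against 63.7 for all tested genes. The level of spock1 was 2.25 ± 0.464 CPM in WT against 1.74 ± 0.420 CPM in hm41 (SD, n = 3 each), and the groups overlapped. Neuron markers were present as the tissue label implies, with a summed level over 5 genes of 59.0 to 68 CPM in WT against 73.1 to 91.4 CPM in hm41, and 5 of 5 had a log2 fold change above 0. The sum over 5 epidermal markers was 935 to 1040 CPM in WT against 585 to 747 CPM in hm41, and 5 of 5 had values below 0. None of these markers passed edgeR's test, beside 0.0571% of all tested genes (smallest adjusted p 0.122 for neuron and 0.105 for epidermal markers). At an unadjusted p under 0.05, 3 neuron markers were higher and 3 epidermal markers lower (5.35% and 5.05% of all tested genes). The groups did not overlap for 2 neuron markers, elavl4 and stmn2b, and 3 epidermal markers, krt4, krt5 and krt17 (8.09% and 8.44% of all tested genes). The epidermal sum was mostly krt4 and krt5, while epcam and cdh1 overlapped between the groups (-0.12 ± 0.224 and -0.02 ± 0.182, SE). The part of these cell types in any value below was not tested.

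Proteasome transcript levels were not detectably different between hm41 and WT heads. Of the 43 genes deep enough to be tested, 0 passed an adjusted p of 0.05 (edgeR quasi-likelihood F-test, Benjamini-Hochberg over all genes), where 0.0571% of all 19275 tested genes did, 0.0156% higher and 0.0415% lower. At an unadjusted p under 0.05 there were 2 proteasome genes, psma8 and psmc4, both higher in hm41. That is 4.65% of the 43, where 10.4% of all tested genes had such a p, 5.35% higher and 5.05% lower. DESeq2 likewise called 0, although it gave only 5 of the 43 an adjusted p (8.08% of the genes given one were called), and its unadjusted p was under 0.05 for the same 2 genes (5.99% of all genes). The median log2 fold change was 0.04 over the 43 genes and -0.02 over all tested genes, with 23 proteasome genes above 0 and 20 below (53.5% above 0, where 47.9% of all tested genes were). For 37 of the 43 genes the 95% confidence interval lay within 1 on the log2 scale on either side of 0, that is within a doubling or a halving, as it did for 59.7% of all tested genes. The intervals that reached past this were those of psma8, psmb6, psmb11b, psmd10, psme2 and psmf1. In bulk samples such as these, fewer cells of a type and less RNA per cell cannot be told apart.

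**Figure D1:**
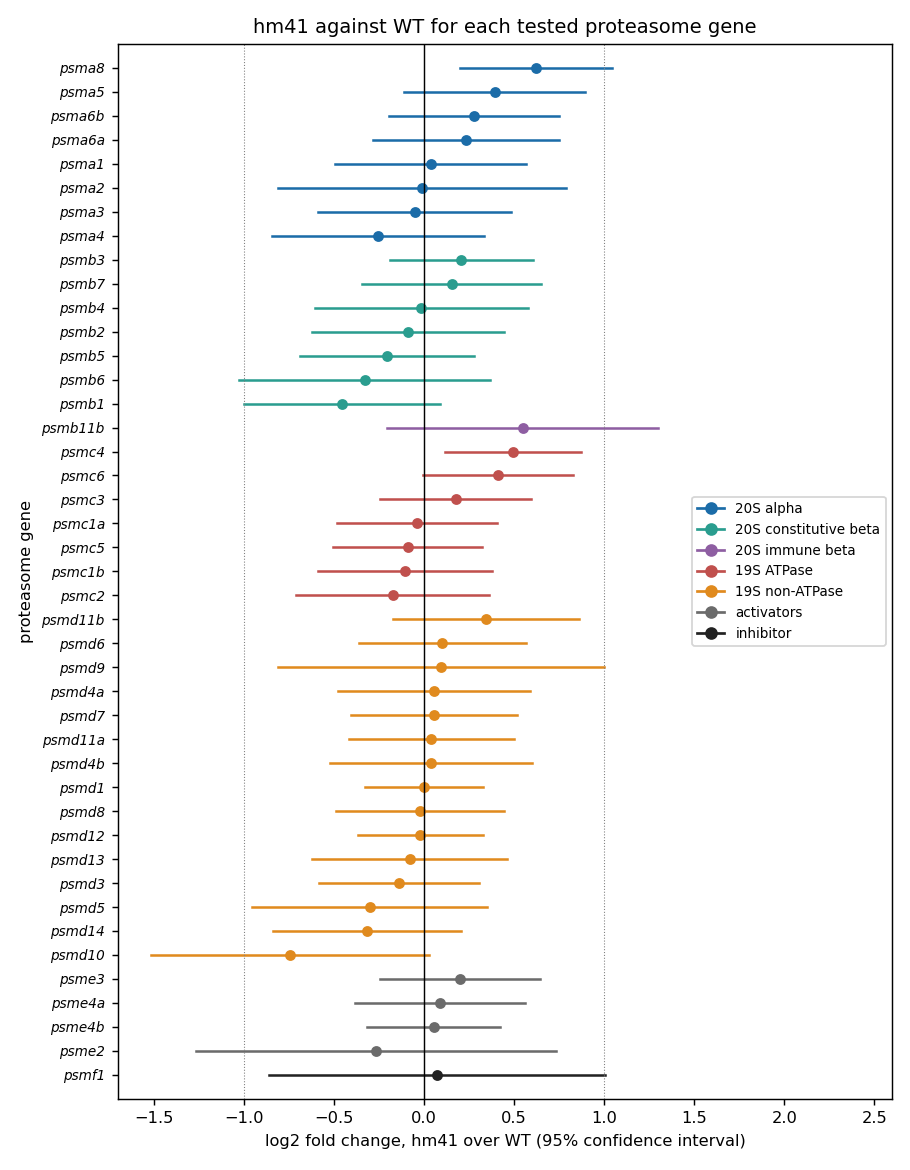
Log2 fold change of hm41 over WT (x axis) for each of the 43 tested proteasome genes (y axis), coloured by group, with lines for the 95% confidence interval and dotted lines at a doubling and a halving. The values scatter around 0 in every group that has several genes, and most intervals lie between the dotted lines.

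Among the alpha subunits, which form the outer rings, psma8 had the smallest p and the highest fold change of all proteasome genes. In this annotation the row psma8 also carries the older name psma7, and no separate psma7 row was analysed here. Its level was 2.89, 1.91 and 2.72 CPM in WT 66, 67 and 68, against 4.09, 3.18 and 4.59 CPM in hm41 69, 70 and 71. Each hm41 library was thus above each WT library, a pattern seen for 1 of the 43 proteasome genes and 8.09% of all tested genes. The log2 fold change was 0.62 ± 0.201 (SE), or 1.54-fold, with an edgeR adjusted p of 0.253. For psma5 the WT libraries had 2.67, 3.20 and 3.08 CPM and the hm41 libraries 2.61, 3.34 and 5.79 CPM. Here 1 library, hm41 71, stood above the rest, and the log2 fold change of 0.39 ± 0.238 (SE) became 0.03 without it. At the other end of the group was psma4, with -0.25 ± 0.280. The 8 tested alpha genes had a median of 0.14, with 5 above 0 and 3 below.

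The row psma6l, a relative of psma6a and psma6b, had 65 counts in all and was too low for the test. It had 0.255 ± 0.182 CPM in WT against 0.149 ± 0.00356 CPM in hm41 (SD, n = 3 each), and WT 67 alone, at 0.462 CPM, was above the other libraries. A second gene for the alpha subunit psma2 is listed under the clone name si:rp71-45k5.4, which the name rule does not take. It was found after the values were seen, through the synonyms of the RefSeq gene psma2b. Its log2 fold change was 0.02 ± 0.302, beside -0.01 ± 0.372 for psma2 itself (SE).

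The constitutive beta subunits include the 3 cutting subunits psmb5, psmb6 and psmb7, which give the core its chymotrypsin-like, caspase-like and trypsin-like activities. In CPM, psmb5 had 1.48, 1.75 and 2.31 in WT 66, 67 and 68, against 1.79, 1.59 and 1.44 in hm41 69, 70 and 71. The range for psmb6 was wider, at 2.27, 0.924 and 2.82 CPM in WT against 1.15, 1.72 and 2.10 CPM in hm41, with WT 67 the lowest of all libraries. For psmb7 the values were 2.36, 1.45 and 2.46 CPM in WT against 2.27, 1.84 and 3.10 CPM in hm41. In all 3 genes the groups overlapped, and the log2 fold changes were -0.20 ± 0.230, -0.33 ± 0.325 and 0.15 ± 0.238 (SE). The structural subunits psmb1 and psmb3 had the smallest p of the group. Of these, psmb1 had 1.45, 1.09 and 1.89 CPM in WT against 1.23, 1.20 and 0.855 CPM in hm41 (-0.46 ± 0.260), and psmb3 had 2.75, 2.77 and 3.72 CPM in WT against 3.63, 3.10 and 4.05 CPM in hm41 (0.21 ± 0.190). Neither gene separated the groups. Over the 7 genes the median was -0.09, with 2 above 0 and 5 below, and no adjusted p was under 0.573 by edgeR's test.

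The rows of the immune beta subunits held few or no counts, apart from 1. The interferon-inducible subunits psmb8a, psmb9a and psmb10, which stand in for psmb5, psmb6 and psmb7 in the immunoproteasome, had 0, 4 and 2 counts over the 6 libraries. Their 6 counts came from WT 67, WT 68 and hm41 70, with 2 in each, while psmb5, psmb6 and psmb7 together had 557, 125 and 645 counts in WT 66, 67 and 68, against 204, 417 and 272 in hm41 69, 70 and 71. No gene lengths were available to set these counts against each other. The rows psmb8a and psmb11a were listed at 0 in all libraries, but so was psmd2, which every cell uses, so low entries in these rows are counts in this table and not a measure of expression. No difference between genotypes was detectable at these counts. In the gene order of GRCz12tu, psmb8a, psmb12, psmb9a and the peptide transporter gene tap2a follow each other directly on chromosome 19, and psmb12 had 2 counts, both in WT 66. The row of tap2a (listed as abcb3l1) and that of the class I gene mhc1uba, also on chromosome 19, were at 0 in all libraries. The immune genes of this cluster are known to differ between haplotypes in zebrafish. The rows psmb10 and psmb11a lie outside it, on chromosomes 4 and 2. Any part of haplotypes in these counts was not tested. Leukocyte markers were low, with a summed level over 6 genes of 1.21 to 1.36 CPM in WT against 1.38 to 1.71 CPM in hm41. These sums were narrowly higher in each hm41 library than in each WT library. None of the 3 tested markers of this list separated the groups. Log2 fold changes were 0.24 ± 0.319 for coro1a, 0.56 ± 0.522 for lcp1 and -0.15 ± 0.578 for spi1b (SE). The level of ptprc, which marks all leukocytes, was 0.179 ± 0.0326 and 0.142 ± 0.0555 CPM (SD, n = 3 each). The part of leukocytes in the low immune counts was not tested.

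The exception was psmb11b, with 225 counts. It encodes a beta subunit related to the one that, in mammals, belongs to the proteasome of the thymus cortex. Its level was 0.449, 0.924 and 0.365 CPM in WT 66, 67 and 68, against 0.843, 0.728 and 0.806 CPM in hm41 69, 70 and 71. The hm41 libraries lay close together and above WT 66 and WT 68, but WT 67 was the highest of all. The log2 fold change was 0.55 (95% interval -0.20 to 1.30, edgeR adjusted p = 0.633). It became 0.95 without WT 67 and 0.29 without WT 68. Relative to the mean log2 level of psmb5, psmb6 and psmb7, psmb11b lay at -2.13, -0.52 and -2.77 in WT 66, 67 and 68 and at -0.98, -1.23 and -1.38 in hm41 69, 70 and 71, a scale that serves to compare libraries and not genes. The difference of the group means was 0.61 with a WT SD of 1.16, 1.26 without WT 67 and 0.13 without WT 68. Thymus and T cell markers were low throughout, with a summed level over 5 genes of 0.506 to 0.759 CPM in WT, highest in WT 67, and 0.537 to 0.613 CPM in hm41. The only marker tested, rag1, had 0.175, 0.297 and 0.247 CPM in WT 66, 67 and 68. In hm41 69, 70 and 71 it had 0.358, 0.321 and 0.244 CPM. Of the 5 markers, rag2 and foxn1 were at 0 in WT 68 and lck in WT 67. Their part in the level of psmb11b was not tested. Some counts of psmb11b were not whole, so a share of its reads was divided with other rows.

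**Figure D2:**
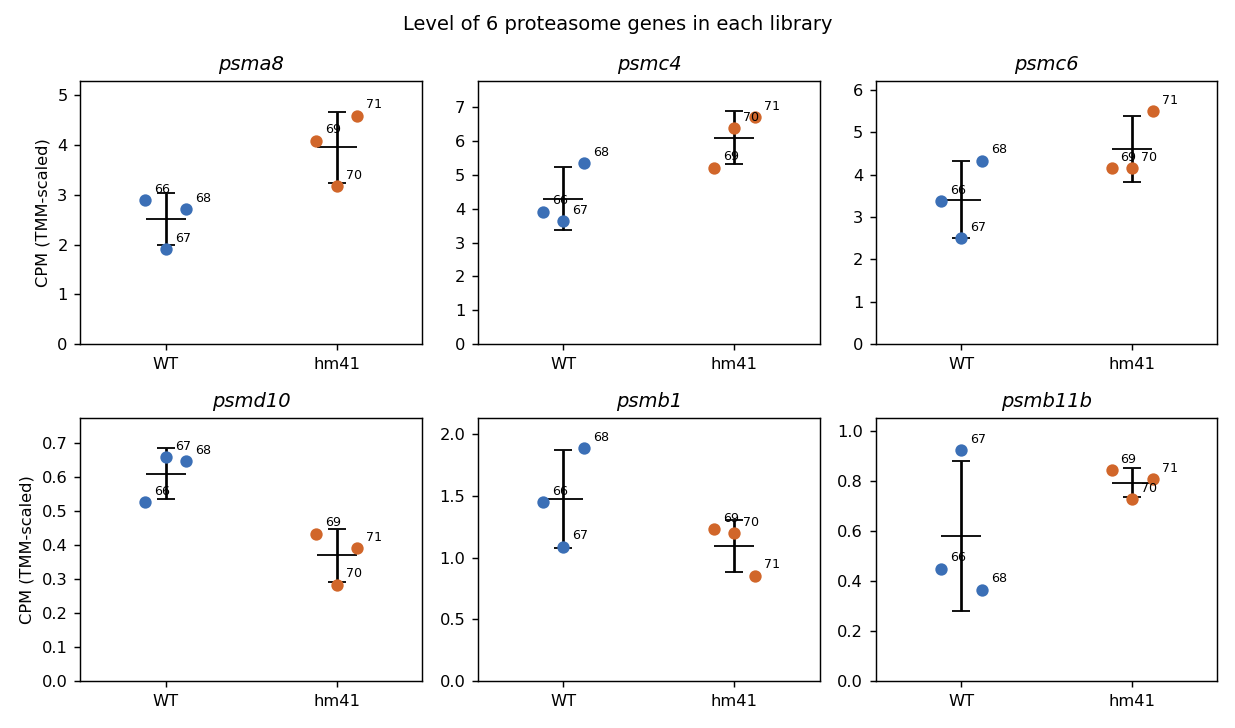
Level in CPM after scaling (y axis, from 0) of 6 proteasome genes in the WT and hm41 groups (x axis), with 1 point per library, labelled by its number, and a bar for the mean ± SD of 3 libraries. The groups are apart for psma8 and psmd10 and overlap for psmc4, psmc6, psmb1 and psmb11b, where WT 67 is the highest of the 6 libraries.

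In the 19S particle, the ATPase psmc4 had the second smallest p of all proteasome genes. The ring it belongs to unfolds substrates before they enter the core. Its level was 3.91, 3.63 and 5.35 CPM in WT 66, 67 and 68, against 5.21, 6.37 and 6.71 CPM in hm41 69, 70 and 71. The groups overlapped only in that WT 68 was above hm41 69. The log2 fold change was 0.50 ± 0.180 (SE; edgeR adjusted p = 0.328). It was 0.69 without WT 68 (adjusted p = 0.124) and 0.40 without WT 67 (adjusted p = 0.607). For psmc6 the levels were 3.37, 2.51 and 4.33 CPM in WT against 4.16, 4.16 and 5.49 CPM in hm41, again with only WT 68 inside the range of the mutants (0.41 ± 0.200, SE). The lowest value in the ring was that of psmc2, -0.17 ± 0.256, and the median over the ring was -0.04. Of the 7 ATPase genes 3 were above 0 and 4 below.

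Of the non-ATPase genes, psmd10 had the lowest value. It encodes gankyrin, a chaperone that helps to assemble the base of the 19S particle and is absent from the finished protease. Its level was 0.526, 0.660 and 0.647 CPM in WT 66, 67 and 68, against 0.434, 0.284 and 0.391 CPM in hm41 69, 70 and 71. Every mutant library was below every WT library, as for 1 of the 43 proteasome genes and 8.44% of all tested genes. With 179 counts in all the log2 fold change of -0.74 had a 95% confidence interval of -1.51 to 0.03 (edgeR adjusted p = 0.504). The gene lies on chromosome 14, as spock1 does, with 382 protein-coding genes between them in GRCz12tu. The other assembly chaperones among these genes, psmd5 and psmd9, had log2 fold changes of -0.30 ± 0.312 and 0.09 ± 0.433 (SE). The gene with the highest value was psmd11b, a scaffold subunit of the lid, with 0.35 ± 0.247.

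The genes with the most counts had the narrowest intervals. The lid subunit gene psmd12 had 2706 counts and a log2 fold change of -0.02 (95% confidence interval -0.37 to 0.33), and psmd1, a large scaffold of the base, had one of 0.00 (-0.33 to 0.33). The deubiquitinase psmd14, which strips ubiquitin from the substrate, had 2.62 ± 0.975 CPM in WT against 2.18 ± 0.400 CPM in hm41 (SD, n = 3 each). Over the 15 genes the median was 0.00, with 8 above 0 and 7 below. The scaffold gene psmd2 was listed at 0 in all 6 libraries. As it encodes a subunit that every cell uses, that entry says nothing about its level.

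None of the 4 tested activator genes nor the inhibitor was called, with edgeR adjusted p-values of 0.805 to 0.972. Over all tested genes 0.0571% were called. The nuclear activator gene psme3 had 1.80, 2.18 and 2.13 CPM in WT 66, 67 and 68, against 2.10, 2.01 and 2.91 CPM in hm41 69, 70 and 71 (0.20 ± 0.213, SE). The levels overlapped, with hm41 71 the highest. The interferon-linked activator genes psme1 and psme2, whose products form 1 ring in mammals, were scarce. For psme2 the mean was 0.294 ± 0.0951 CPM in WT against 0.252 ± 0.0447 CPM in hm41 (SD, n = 3 each; log2 fold change -0.27 ± 0.479, SE). Its partner psme1 had 0.186, 0.231 and 0.165 CPM in WT against 0.0767, 0.0864 and 0.0488 CPM in hm41. The groups of psme1 did not overlap, but its 50 counts were too few for the low-count filter. With no filter but the 10 counts, its log2 fold change was -1.36 ± 0.751 (SE) with an edgeR adjusted p of 0.607, where 8.27% of the 24399 genes tested were lower in the mutants with no overlap. The inhibitor psmf1 had 0.401 ± 0.147 CPM in WT against 0.416 ± 0.159 CPM in hm41 (SD, n = 3 each; 0.07 ± 0.446, SE).

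No shift of the 20S core against the 19S particle was seen between the genotypes. Their median log2 fold changes were 0.01 over 16 genes and -0.01 over 22 genes, the latter with the assembly chaperones psmd5, psmd9 and psmd10. Within a library, the median deviation of the core genes from their own means minus that of the 19S genes was -0.13, 0.11 and -0.07 in WT 66, 67 and 68, against -0.13, 0.06 and 0.19 in hm41 69, 70 and 71 on the log2 scale. The groups overlapped, with means of -0.03 ± 0.122 and 0.04 ± 0.161 (SD, n = 3 each). Core genes took 0.0518% ± 0.00870 of the counts outside the 8 most abundant rows in WT against 0.0563% ± 0.00743 in hm41, and 19S genes 0.100% ± 0.0177 and 0.105% ± 0.00688 (SD, n = 3 each).

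Proteasome genes spread more widely among the WT libraries than between the group means. In WT 67 the median deviation over the 43 genes was -0.29 on the log2 scale, and in WT 68 it was 0.20, so the extremes of the 6 libraries were both WT. In WT 66 it was -0.03, and in hm41 69, 70 and 71 it was 0.06, -0.06 and 0.19. The group means of these medians were -0.04 ± 0.244 for WT and 0.06 ± 0.127 for hm41 (SD, n = 3 each). Over all tested genes these medians were between 0.01 and 0.02. The level was lowest in WT 67 for 24 of the 43 genes (55.8%, against 21.1% of all tested genes), and highest in WT 68 for 18 and in hm41 71 for 15 (14.8% and 19.2% of all tested genes). Without WT 67 the median log2 fold change of hm41 over WT was -0.07, with 15 of the 43 genes above 0, and without WT 68 it was 0.13, with 31 above 0. In WT 67 the median deviation was -0.32 for the 19S genes, -0.22 for the core genes and -0.10 for the activators. Other lists were low in WT 67 as well. Median deviations were -0.26 for assembly factors and regulators, -0.26 for MHC class I presentation and -0.17 for ubiquitin and shuttle genes. The 11 tested genes of the interferon response list had a median deviation of 0.34 in WT 67. The other matched genes of that list, among them isg15, rsad2 and mxa, had too few counts to be tested. Neuron markers were low in each WT library, with -0.24, -0.25 and -0.115 in WT 66, 67 and 68. They had 0.39, 0.30 and 0.02 in hm41 69, 70 and 71. Epidermal markers were high in each WT library, with 0.15, 0.23 and 0.32 in WT 66, 67 and 68. They had -0.40, -0.22 and -0.27 in hm41 69, 70 and 71. WT 67 also had the fewest counts outside the abundant rows, and the 3 tested neutrophil markers had a median deviation of -1.10 there and 0.91 in WT 68. These markers had only 4 (mpx), 2 (lyz) and 9 (mmp9) counts in WT 67, so the value there is close to the floor. The summed level of 4 neutrophil markers was 0.528 CPM in WT 67, 1.96 CPM in WT 68 and between 0.910 and 1.54 CPM in the others, with il1b at 0 in WT 66, WT 68 and hm41 69. The row LOC110438492 split the libraries too, with 5141165, 2743068 and 2589780 counts in WT 68, hm41 70 and hm41 71. It had 6, 1 and 0 counts in WT 66, WT 67 and hm41 69. In a fit with a term for this split, the median log2 fold change of hm41 over WT was -0.024, with 21 of the 43 genes above 0. The part of depth, of the split and of neutrophils in the pattern among the libraries was not tested.

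**Figure D3:**
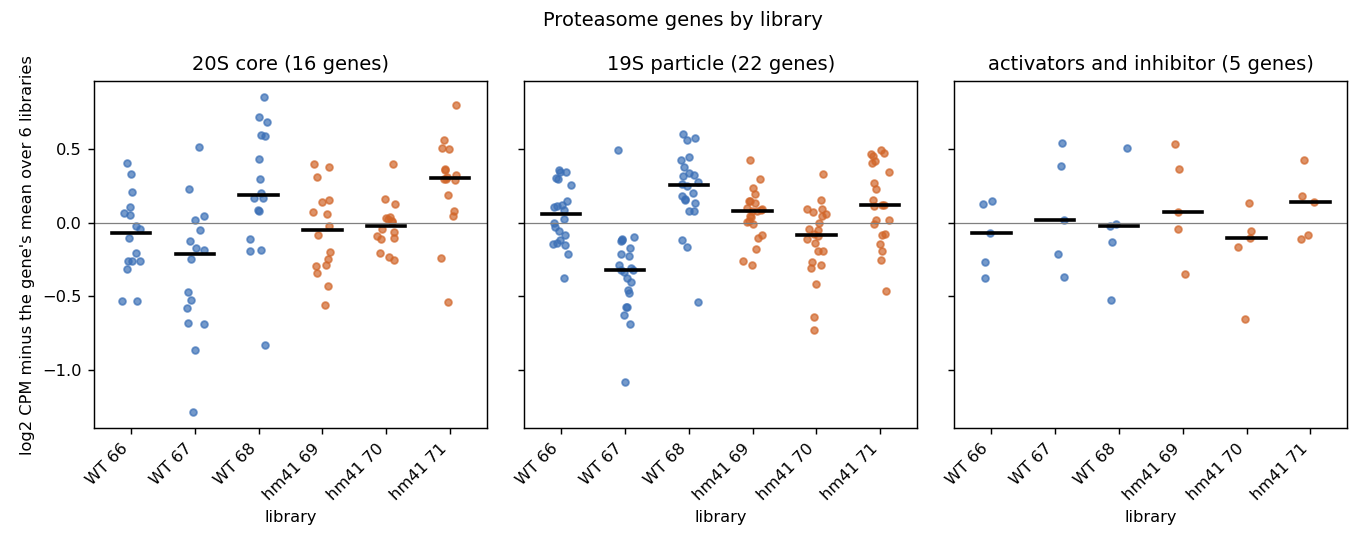
Deviation of each proteasome gene from its own mean over the 6 libraries (y axis, log2 CPM) by library (x axis), for the 20S core (16 genes), the 19S particle (22 genes) and the activators with the inhibitor (5 genes). Points are genes, WT in blue and hm41 in orange, and black bars are medians. The core and 19S genes lie low in WT 67 and high in WT 68 and hm41 71.

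For 5 proteasome subunits, both genes of a pair of paralogs named a and b had counts in each library. A further pair, psmb11a and psmb11b, is left out because psmb11a was listed at 0. The share of the pair's counts that fell on the first gene is not corrected for length and serves to compare libraries. For psmc1a it was 63.9% ± 1.75 in WT against 65.2% ± 4.14 in hm41, and for psmd4a, one of the ubiquitin receptors, 54.5% ± 2.27 and 54.3% ± 3.83 (SD, n = 3 each). The share of psma6a was 41.9% ± 9.54 and 41.5% ± 7.89, and that of psmd11a 57.5% ± 4.95 and 52.5% ± 7.0. For psme4a, a gene of the activator that works in the nucleus, the share was 26.5% ± 7.76 and 26.5% ± 3.97. The groups overlapped for all 5 pairs. In psma6a and psme4a the spread was largest within WT, and in the other pairs within hm41. The share of psma6a was 51.7% in WT 66 (95% Wilson interval 46.0% to 57.4%) and 32.7% in WT 67 (24.3% to 42.3%), with 32.5% in hm41 69, and that of psme4a 19.8% in WT 66 (17.0% to 23%) and 35.0% in WT 67 (29.0% to 41.5%).

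**Figure D4:**
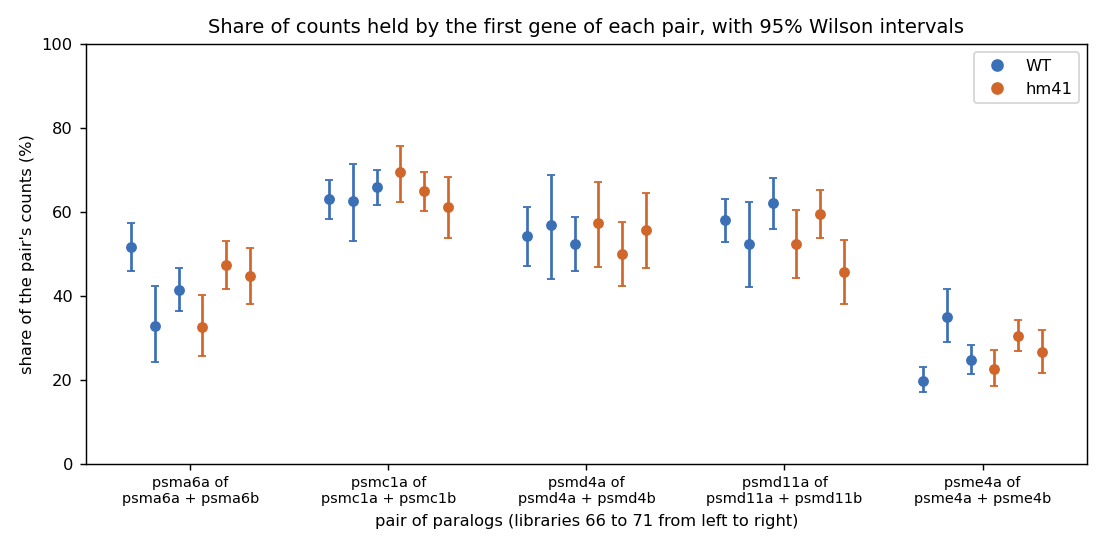
Share of the counts of each paralog pair that fell on its first gene (y axis, percent) for 5 pairs (x axis), with 1 point per library in the order of their numbers and 95% Wilson intervals, which cover counting error only. The WT and hm41 points overlap in each pair, and the distance between WT 66 and WT 67 is larger in psma6a and psme4a than in the other pairs.

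No paralog was called, beside 0.0571% of all tested genes. The log2 fold changes were 0.23 ± 0.246 for psma6a and 0.28 ± 0.226 for psma6b, -0.04 ± 0.212 for psmc1a and -0.11 ± 0.231 for psmc1b, and 0.06 ± 0.255 for psmd4a and 0.04 ± 0.269 for psmd4b (SE). For psmd11a the value was 0.04 ± 0.219 beside the 0.35 of psmd11b. For psme4a and psme4b they were 0.09 ± 0.227 and 0.05 ± 0.178. The counting of psmd11a, psmd7, psme2 and psme3 gave values that were not whole, so some of their reads were shared with other rows.

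Genes that work with the proteasome gave no call either. Over all tested genes 0.0571% passed edgeR's test, so 0 calls in lists this short say little about their genes. Of 18 tested assembly factors and regulators, 0 passed edgeR's test (median log2 fold change 0.12), with 0 higher and 1 lower at an unadjusted p under 0.05 (5.35% and 5.05% of all tested genes). The groups did not overlap for 0 genes higher and 2 lower (8.09% and 8.44% of all tested genes), psmg4 and nfe2l2b. The gene with the smallest p was psmg4, an assembly chaperone of the core, at 0.647, 0.528 and 0.576 CPM in WT 66, 67 and 68, against 0.307, 0.247 and 0.391 CPM in hm41 69, 70 and 71. The log2 fold change was -0.93 ± 0.381 (SE; edgeR adjusted p = 0.398). Next were nfe2l2a, a transcription factor of the oxidative stress response (0.40 ± 0.210), psmg2, another core chaperone (-0.38 ± 0.309), and nfe2l2b, a paralog of nfe2l2a (-0.27 ± 0.252). For nfe2l2a 1 library, hm41 71 at 37.6 CPM, stood above the rest, which had 18.9 to 22.5 CPM.

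Of 33 tested ubiquitin and shuttle genes 0 passed, beside 0.0571% of all tested genes. The median of the list was 0.10. At an unadjusted p under 0.05 there were 3 higher and 1 lower, beside 5.35% and 5.05% of all tested genes. The groups did not overlap for 4 genes that were higher (otub1b, uchl1, ube2d2 and ube3a) and 2 that were lower (nploc4 and faf1), beside 8.09% and 8.44% of all tested genes. The largest value was that of otub1b, a deubiquitinase gene, with 0.526, 0.264 and 0.470 CPM in WT 66, 67 and 68, against 1.25, 0.876 and 1.07 CPM in hm41 69, 70 and 71. The log2 fold change was 1.25 ± 0.324 (SE; edgeR adjusted p = 0.165). The cofactor gene nploc4 of the unfoldase vcp had -0.61 ± 0.246, and the ubiquitin hydrolase genes uchl3 and uchl1 had 0.66 ± 0.271 and 0.50 ± 0.239. The last of these is known as a gene of neurons in mammals.

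The list for MHC class I presentation also holds chaperones and peptidases. Of its genes 18 were tested and 0 passed, beside 0.0571% of all tested genes, with a median of 0.00. At an unadjusted p under 0.05 there were 1 higher and 1 lower (5.35% and 5.05% of all tested genes). These were the lectin chaperone calr (0.39 ± 0.181, SE) and its partner pdia3 (-0.49 ± 0.161), followed by the class I genes mhc1zja (-0.40 ± 0.198) and mhc1zea (-1.01 ± 0.521). The groups did not overlap for 1 gene that was higher (calr) and 2 that were lower (pdia3 and mhc1zea), beside 8.09% and 8.44% of all tested genes. Of the class I light chain genes, b2ml had 8.07 ± 2.03 CPM in WT against 9.74 ± 3.74 CPM in hm41 (SD, n = 3 each). The other, b2m, had 0.292 ± 0.158 CPM in WT against 0.315 ± 0.0454 CPM in hm41 (SD, n = 3 each). Of the interferon response list, 11 of 31 matched genes were high enough to be tested, and 0 passed, beside 0.0571% of all tested genes. The median of this list was -0.06. At an unadjusted p under 0.05 there were 0, beside 10.4% of all tested genes. The smallest p-values of this list were those of stat2 (0.45 ± 0.216), ifngr1 (-0.64 ± 0.333), stat1b (0.75 ± 0.410) and irf7 (-0.66 ± 0.473). Among its tested genes, 1 was higher (stat1b) and 2 were lower (ifngr1 and irf7) with no overlap of the groups, beside 8.09% and 8.44% of all tested genes.

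**Figure D5:**
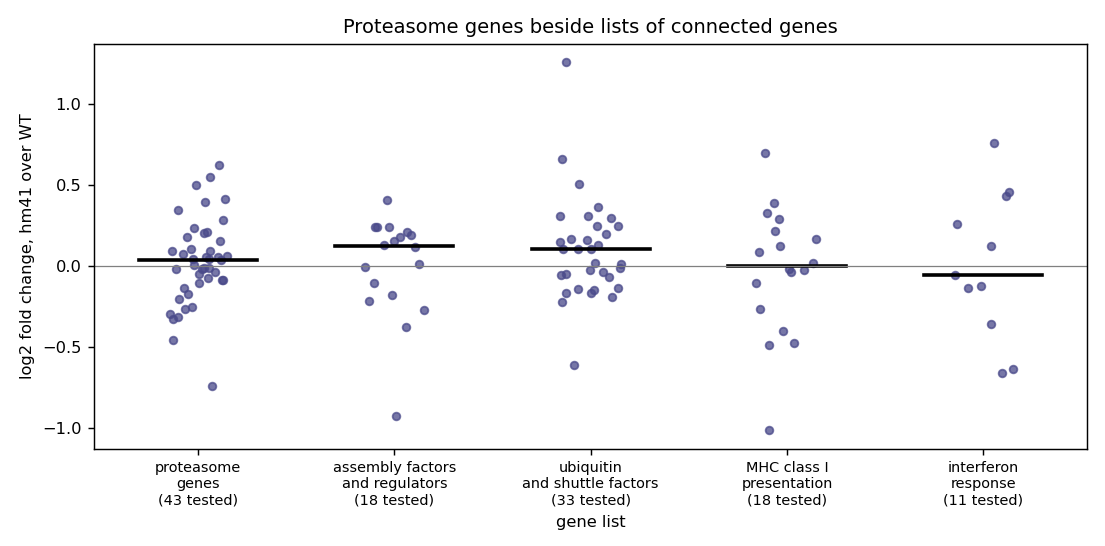
Log2 fold change of hm41 over WT (y axis) for the tested proteasome genes and 4 lists of genes that work with them (x axis), with 1 point per gene and black bars for the medians, which lie between -0.06 and 0.12. Each list spreads to both sides of 0.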

How the data were processed

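The authors deposited unscaled expected counts per gene for 6 bulk RNA-seq libraries. Per the submitters' processing notes, RSEM, TopHat, Bowtie2 and the build GRCz11 are listed, without saying what each was used for. Directional libraries were made from total RNA, per the labels' protocols. Neither annotation release nor strand setting is stated. A single-cell sample of mixed genotypes and ages was not analysed here.

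Counts were rounded and fitted over the whole table with edgeR 4.0.16 in R 4.3.3: filterByExpr, TMM scaling, robust quasi-likelihood F-test, two-sided, Benjamini-Hochberg over all tested genes. CPM use the scaled totals; log2 levels by library add 0.5 counts. DESeq2 1.42.0 was an alternative. The steps were tested on simulated data. Wilson intervals cover counting error alone, because PCR copies cannot be told from molecules; intervals of fold changes come from the edgeR fit and include the spread between libraries. Names and gene order come from RefSeq genes of GRCz12tu, not the authors' build, and 52 of 52 rows matched. No gene lengths or sequences were used, so the planned comparisons per coding length and of promoter motifs were not made.

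Members and lists were chosen with earlier results of these data known. Genes named with values are the immune beta, activator, inhibitor and paralog genes, those with no overlap between groups, the 2 with the smallest p per group, the extremes of each group, psmb5, psmb6 and psmb7, and up to 4 per list by p. Further names (psma2, psmd1, psmd5, psmd9, psmd12, psmd14, b2m, b2ml, abcb3l1, mhc1uba, ube2d2, ube3a, faf1, rag1, isg15, rsad2, mxa, the epidermal, neuron, leukocyte and neutrophil markers and the row of psma2b) were chosen after their values were seen. One gene of the lists is not reported here.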

Additional observations from a re-analysis of the deposited data

How the results depend on the processing

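The count of called proteasome genes was 0 under each of the 12 alternatives, with smallest adjusted p-values between 0.108 (DESeq2, where 38 of the 43 genes got none) and 0.579. Over all genes the edgeR fits called 6 to 47 and DESeq2 199. With so few calls, a count of 0 among the proteasome genes says little about them. No paired analysis was possible because the library numbers differ between the groups. Library totals alone moved the median of all genes by 0.22, and relative to it the proteasome median went from 0.06 to 0.03. In that fit the medians were 0.22 for the 20S core, 0.23 for the 19S particle and for its non-ATPase genes and 0.30 for the activators, 35 of the 43 proteasome genes were above 0 (23 in the fit reported), 12 changed sign, and among the named genes the sign turned for psmc1a (0.17), psmc1b (0.10) and psmc2 (0.026). With a term for the split of the libraries by LOC110438492, psmd4b had -0.07. Without 1 library in turn, the median of the core ranged from -0.094 to 0.28 and that of the activators from -0.021 to 0.11. Of the named genes, 12 changed sign in such fits: psma4 (-0.49 to 0.13), psmb5 (-0.35 to 0.004), psmb7 (-0.053 to 0.33), psmc1a (-0.21 to 0.20), psmc1b (-0.24 to 0.055), psmc2 (-0.34 to 0.16), psmd4a (-0.089 to 0.23), psmd4b (-0.064 to 0.25), psmd11a (-0.059 to 0.24), psme4a (-0.07 to 0.30), psme4b (-0.13 to 0.15) and psmf1 (-0.20 to 0.38). The other 14 of 26 named genes kept their sign in all 12 fits, but they moved in size without 1 library: psma5 (0.028 to 0.61), psma6a (0.056 to 0.39), psma6b (0.098 to 0.44), psmb1 (-0.60 to -0.24), psmb3 (0.13 to 0.37), psmb6 (-0.61 to -0.028), psmb11b (0.29 to 0.95), psmc6 (0.26 to 0.62), psmd11b (0.16 to 0.54), psme2 (-0.43 to -0.023) and psme3 (0.034 to 0.30). The ranges of the remaining genes were 0.49 to 0.76 for psma8, 0.40 to 0.69 for psmc4 and -0.87 to -0.56 for psmd10. With the LOC110438492 term psmc4 had 0.37 (adjusted p = 0.471). The cause of these changes was not tested. Depth limits the rows with the fewest counts most, among them psme1, psma6l, psme2, psmf1, psmd9, psmd10 and the immune beta rows.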
